A study of Mus musculus with 6 samples.

Results

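Eosinophil granule genes encode the cationic proteins that fill the granules of eosinophils, a white blood cell made in the bone marrow. The set here has 6 members, all found by symbol among the 53465 genes of the deposited table, with 1 row each: Prg2, Prg3, Epx, Ear1, Ear2 and Il5ra. Prg2 encodes major basic protein and Prg3 its close relative, Epx encodes eosinophil peroxidase, and Ear1 and Ear2 encode eosinophil-associated ribonucleases. Il5ra encodes the alpha chain of the receptor for interleukin 5, the cytokine that drives eosinophil production and survival. RNA was sequenced from bone marrow cells of wild-type mice sorted by surface protein as LT-HSCs, long-term blood stem cells: Lineage-, Sca-1+, c-Kit+, Flk2-, CD34-. The libraries were 3 from mice given carnosine (beta-alanyl-histidine, a natural dipeptide), and 3 from mice given saline. All of these mice had first received 5.0 Gy of total body irradiation, so no library came from unirradiated animals. The labels state no strain, age, carnosine dose or time of sampling, and do not tie libraries to single animals. The p-values therefore measure variation among these 6 libraries, part or all of which may be technical.

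Granule proteins are made early in eosinophil development, in committed progenitors of the marrow, under GATA, C/EBP and PU.1 transcription factors. Major basic protein and eosinophil peroxidase are toxic to parasites and to host cells, and the ribonucleases degrade RNA. In mice the ribonucleases form a cluster of closely related genes on chromosome 14. The interleukin 5 receptor pairs its own alpha chain with a beta chain, Csf2rb, that is shared with other cytokine receptors.

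Total counts per library were 12730837 to 13651553 in the carnosine group and 12602067 to 16866534 in the saline group. Across tested genes, Pearson's r of log2 CPM between libraries was 0.988 to 0.990 inside a group and 0.959 to 0.962 across groups, which describes the libraries and is no test. The gate excludes the proteins of Flt3 and Cd34, yet their transcripts were abundant: Flt3 was at 179.6 ± 2.5 CPM with carnosine and 209.9 ± 8.63 CPM with saline, and Cd34 at 300.4 ± 4.69 CPM with carnosine and 328 ± 18.9 CPM with saline (SD, n = 3 each). LT-HSC therefore names the gate here. In bulk libraries, fewer cells that express a gene and less of its RNA per cell cannot be told apart.

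Prg2, Prg3 and Epx were higher in the carnosine libraries than in the saline libraries. Prg2 changed most, about 3-fold, and Epx was 1.86-fold higher. Ear2 was also higher, at the edge of the test, while Ear1 was lower in every carnosine library at counts too low for testing. Il5ra overlapped between the groups. Of the 6 members 5 passed the filter on low counts and 4 of these rose, 0 fell and 1 did not pass the test (quasi-likelihood test of edgeR, adjusted p under 0.05 by Benjamini-Hochberg). Across all 15533 genes tested, 39.4% were called, 19.6% as higher and 19.8% as lower. Prg3 and Ear2 passed the filter through the carnosine libraries, where they were higher, so the count of members called is a description and no support for a joint rise.

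Prg2 (ENSMUSG00000027073) is a 6-exon gene on the plus strand of chromosome 2, 84980461 to 84983632 in GRCm38. Its level, in CPM (counts scaled to library size, with TMM factors), was 31.1, 33.0 and 29.6 in the carnosine libraries and 10.8, 9.52 and 9.73 in the saline libraries. Every carnosine library lay above every saline library. The same order, by any margin however small, was seen for 26.2% of all tested genes. The means were 31.2 ± 1.68 and 10.03 ± 0.702 CPM in carnosine and saline libraries (SD, n = 3 each). The log2 fold change was 1.64 ± 0.0793 (SE; edgeR adjusted p = 8.4e-06), a 3.11-fold rise. Of all tested genes, 1.40% had a larger log2 fold change.

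Prg3 (ENSMUSG00000027072) lies beside Prg2 on the same strand, at 84988215 to 84993886, with 4583 bases between them. It was far less abundant, with counts of 35, 27 and 30 in the carnosine libraries and 16, 14 and 9 in the saline libraries. In CPM these were 2.51, 1.94 and 2.31 with carnosine and 0.968, 0.907 and 0.730 with saline, again without overlap. Over all tested genes, 52.3% had groups that did not overlap, in either direction. Prg3 rose by 1.35 ± 0.207 on the log2 scale (SE; edgeR adjusted p = 0.0020).

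The promoter of Prg3, from 250 bases before to 50 bases after its start, is shown because it holds a pair of matches to the letters that GATA factors bind. It is from RefSeq, build GRCm38.p6, chr2:84987965-84988264, plus strand, and capitals mark GATAA on either strand.
Prg3 promoter: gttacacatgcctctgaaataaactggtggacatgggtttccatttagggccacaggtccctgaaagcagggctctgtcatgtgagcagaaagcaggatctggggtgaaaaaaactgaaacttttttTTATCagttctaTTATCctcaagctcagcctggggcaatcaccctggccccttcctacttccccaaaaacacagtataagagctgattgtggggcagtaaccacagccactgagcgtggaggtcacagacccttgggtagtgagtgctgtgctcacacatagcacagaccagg
Both matches read TTATC along the gene, at -123 and -111 from the start site. GATAA was present at least once on either strand in 25.4% of 32841 promoters of that length, so a match is common. The share of promoters with a pair was not counted. The other runs searched, on both strands, were TTGCNNAA for C/EBP factors and GAGGAA for PU.1, present in 10.8% and 28.3% of promoters. Promoters of 5 members were matched by symbol, and none was found for Prg2. That of Epx held none of the 3 runs, and that of Il5ra held GATAA at -73 and GAGGAA at 42, with no overlap between the matches.

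Epx (ENSMUSG00000052234) has 13 exons on the minus strand of chromosome 11, 87864000 to 87875536. Its level was 13.9, 14.6 and 14.0 CPM in the carnosine libraries and 7.74, 7.26 and 7.95 CPM in the saline libraries. The spread within each group was small against the gap between the groups. The means were 14.2 ± 0.367 CPM with carnosine and 7.65 ± 0.354 CPM with saline (SD, n = 3 each). Epx rose by 0.89 ± 0.0787 on the log2 scale (SE; edgeR adjusted p = 0.00015).

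**Figure D1:**
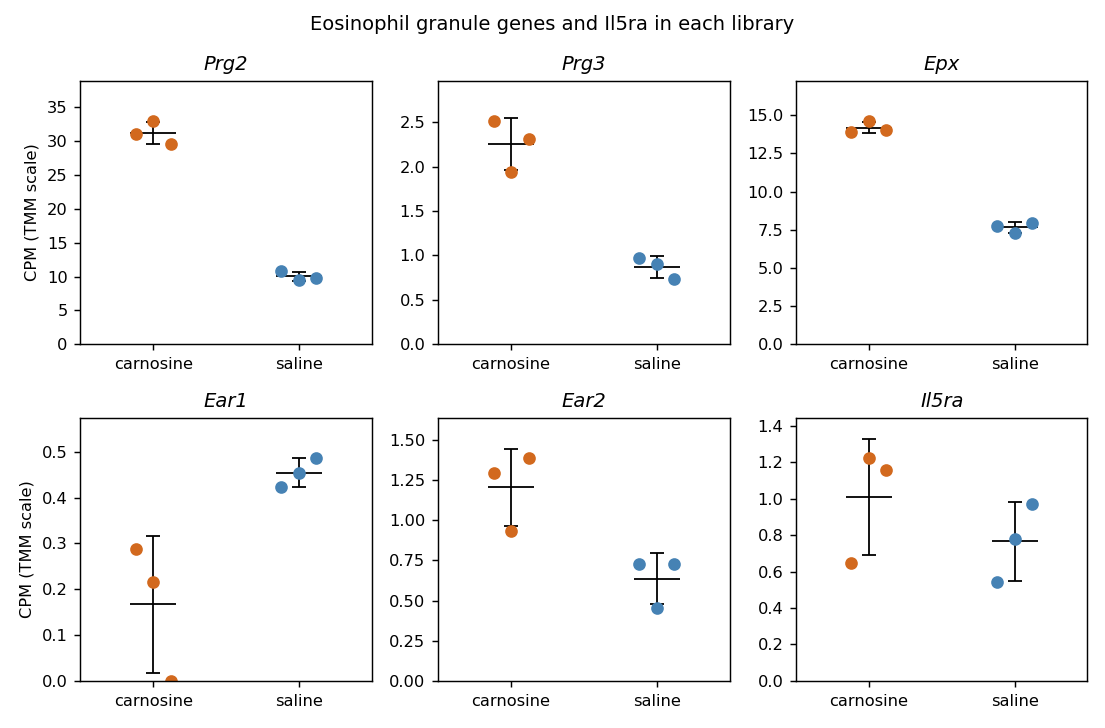
Level of each member in each library, in CPM on the TMM scale (vertical axes start at 0 and differ between panels). Points are libraries and bars are the mean ± SD of 3; the groups are apart for Prg2 (29.6 to 33.0 against 9.52 to 10.8 CPM), Prg3 and Epx, and overlap for Il5ra.

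The ribonuclease genes had few counts. Ear2 (ENSMUSG00000072596, chromosome 14, 44102654 to 44103534, plus strand, 2 exons) had counts of 18, 13 and 18 in the carnosine libraries and 12, 7 and 9 in the saline libraries. In CPM these were 1.29, 0.935 and 1.39 with carnosine and 0.726, 0.454 and 0.730 with saline, and the groups did not overlap. The log2 fold change was 0.92 ± 0.291 (SE; edgeR adjusted p = 0.041). That call was lost without carnosine replicate 1 (edgeR adjusted p = 0.11) or 3 (0.12), and without saline replicate 1 (0.071), 2 (0.13) or 3 (0.068), while its adjusted p ran from 0.021 to 0.25 over all alternatives.

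Ear1 (ENSMUSG00000072601, chromosome 14, 43818765 to 43875517, minus strand) had counts of 4, 3 and 0 in the carnosine libraries and 7, 7 and 6 in the saline libraries. Each carnosine library was below each saline library, as for 26.1% of all tested genes, and the library at 0 could hold up to 0.231 CPM (a floor of 3 counts, counting error only). Ear1 did not pass the filter, and without it the edgeR log2 fold change was -1.37 with an adjusted p of 0.22. So Ear1 and Ear2 lay in opposite directions at counts of this size, and for Ear1 the difference was not detectable by the test at this depth.

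Ear1 and Ear2 are nearly alike in sequence, which bears on how their reads were counted. Of the 50-base windows along the longest coding transcript, 57.4% in Ear1 and 41.5% in Ear2 occur unchanged in a transcript of another gene, in both cases other Ear genes or pseudogenes (GENCODE M21). For Prg2, Prg3 and Epx that share was 0%, and for Il5ra 0.936%. No source used here says how reads matching more than 1 gene were assigned, so the split of reads between Ear1 and Ear2 is uncertain. The deposited Ear1 row also overlaps 4 other rows, among them Ear-ps9 and Ear-ps12. The promoters show the same likeness, with 294 of 298 aligned letters identical (98.7%), 3 mismatches and 1 gap. Both are from RefSeq, GRCm38.p6: Ear1 at chr14:43819590-43819889 on the minus strand, around the RefSeq start at 43819639, and Ear2 at chr14:44102404-44102703 on the plus strand. The deposited Ear1 row begins 55878 bases upstream of that RefSeq start, so the window shown lies inside the row. Capitals mark the letters that differ.
Ear1 promoter: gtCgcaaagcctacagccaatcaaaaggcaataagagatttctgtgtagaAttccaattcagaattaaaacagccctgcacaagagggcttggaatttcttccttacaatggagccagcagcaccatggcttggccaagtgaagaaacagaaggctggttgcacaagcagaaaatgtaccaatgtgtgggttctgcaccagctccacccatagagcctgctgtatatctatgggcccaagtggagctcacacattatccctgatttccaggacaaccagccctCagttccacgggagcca
Ear2 promoter: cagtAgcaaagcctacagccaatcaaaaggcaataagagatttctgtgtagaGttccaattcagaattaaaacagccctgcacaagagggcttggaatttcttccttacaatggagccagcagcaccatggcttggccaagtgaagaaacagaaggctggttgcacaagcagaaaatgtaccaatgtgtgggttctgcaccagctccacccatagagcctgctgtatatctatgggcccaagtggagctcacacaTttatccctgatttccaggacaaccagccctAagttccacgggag
Each holds 1 match to TTGCNNAA, 92 bases before the RefSeq start of Ear1 and 90 before that of Ear2, and 1 match to GATAA just after that start.

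Across the ribonuclease family, 17 of 27 listed symbols were in the table and 10 of these had no count in any library. Besides Ear1 and Ear2, Ear6 had counts of 0, 3 and 3 with carnosine and 10, 11 and 6 with saline, below the filter. It was named after its values were seen. The family's summed level was 1.94, 1.799 and 1.93 CPM in the carnosine libraries and 1.996, 1.81 and 2.19 CPM in the saline libraries. These sums overlapped, in contrast to the levels of Prg2, Prg3 and Epx.

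**Figure D2:**
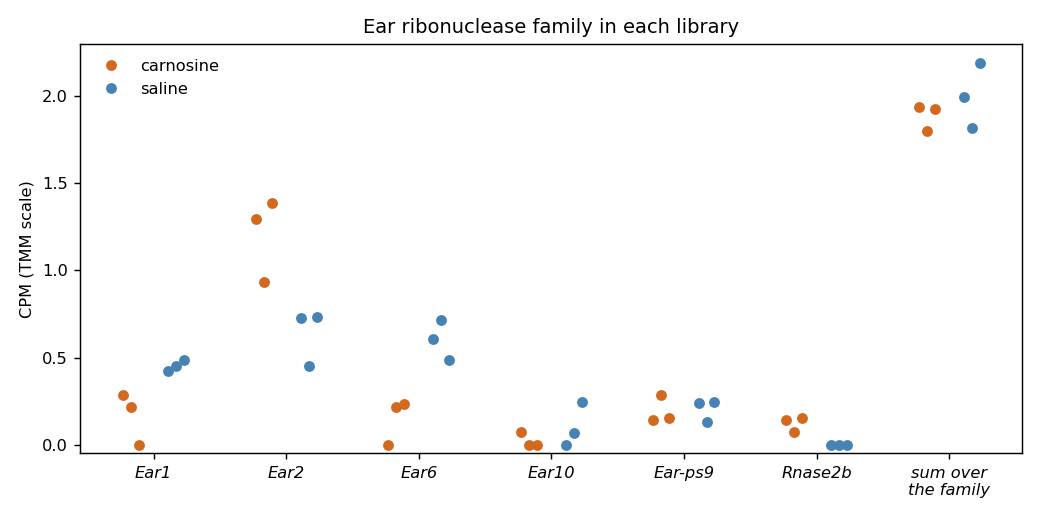
Level of each ribonuclease family gene named on the horizontal axis, and of the sum over the 17 family rows in the table, in CPM on the TMM scale; each point is a library. Ear2 was higher and Ear1 and Ear6 lower with carnosine, all under 1.5 CPM, and the sums of 1.799 to 1.94 CPM with carnosine and 1.81 to 2.19 CPM with saline overlapped.

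Il5ra (ENSMUSG00000005364, chromosome 6, 106710357 to 106749037, minus strand, 13 exons) had counts of 9, 17 and 15 in the carnosine libraries and 9, 12 and 12 in the saline libraries. Its level was 1.01 ± 0.316 CPM with carnosine and 0.765 ± 0.214 CPM with saline (SD, n = 3 each), and the groups overlapped. The log2 fold change of 0.42 ± 0.344 (SE) did not pass the test (edgeR adjusted p = 0.37), and both 0 and the log2 fold change of Epx lay within 2 SE of it.

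Per length, the members differed widely in level. On the authors' FPKM scale, which divides counts by gene length and library total, Prg2 averaged 38.0 ± 2.07 with carnosine and 11.7 ± 0.814 with saline (SD, n = 3 each). Epx was next, at 5.05 ± 0.131 FPKM with carnosine and 2.62 ± 0.116 FPKM with saline. Prg3 (2.09 ± 0.268 FPKM) and Ear2 (1.71 ± 0.337 FPKM) followed in the carnosine libraries and did not differ from each other beyond their spread. In the saline libraries they were at 0.773 ± 0.111 and 0.867 ± 0.215 FPKM, in the other order and again within their spread. Il5ra and Ear1 were under 0.4 FPKM in all libraries. Prg2 and Epx together took 90.0% to 91.7% of the members' summed counts with carnosine and 85.8% to 87.5% with saline.

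The ratios between members were also compared within each library. The ratio of Prg2 to Epx, in FPKM, was 7.64, 7.72 and 7.22 in the carnosine libraries and 4.78, 4.49 and 4.19 in the saline libraries. All carnosine libraries had the higher ratio, with an exact two-sided permutation p of 0.10, the smallest that 3 against 3 libraries allow. The ratio of Prg3 to Epx was 0.415 ± 0.0629 with carnosine and 0.296 ± 0.0498 with saline (SD, n = 3 each), without overlap (exact permutation p = 0.10). The ratio of Prg2 to Prg3 overlapped between the groups, at 16.3 to 22.3 with carnosine and 13.8 to 17.5 with saline (exact permutation p = 0.30). Against Mpo, the neutrophil and monocyte peroxidase, Prg2 was higher with carnosine (0.0332 ± 0.00105) than with saline (0.0209 ± 0.00144; exact permutation p = 0.10). Epx relative to Mpo overlapped between the groups, at 0.00439 to 0.00444 with carnosine and 0.00443 to 0.00486 with saline (exact permutation p = 0.20). Over the 5 ratios computed, the smallest Benjamini-Hochberg adjusted exact permutation p was 0.17, and 3 against 3 libraries cannot bring any of them under 0.05.

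**Figure D3:**
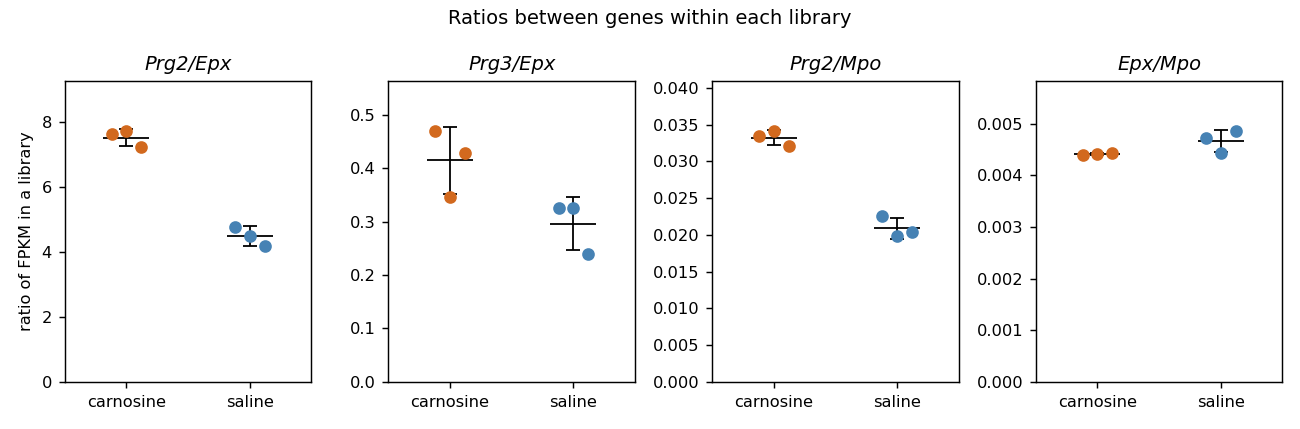
Ratio of the FPKM values of a pair of genes within each library (vertical axes start at 0), with the mean ± SD of 3 libraries per group. The ratios of Prg2 and Prg3 to Epx and of Prg2 to Mpo were higher in every carnosine library, while Epx to Mpo overlapped.

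Epx lies in a cluster of peroxidase genes, and the genes around it were also higher with carnosine. Lpo, which encodes lactoperoxidase and lies 35711 bases from Epx, was at 2.23 ± 0.356 CPM with carnosine and 0.798 ± 0.161 CPM with saline (SD, n = 3 each; log2 fold change 1.45 ± 0.233, SE; edgeR adjusted p = 0.0025). Mpo, 59587 bases away, was at 5394 ± 135 CPM with carnosine and 2752 ± 4.98 CPM with saline (0.97 ± 0.0226 on the log2 scale, SE). Mks1, a ciliary gene that ends 197 bases from the end of Epx on the other strand, rose by 0.63 ± 0.104 (log2, SE), and Tspoap1 by 0.60 ± 0.0437. All tested rows within 100000 bases of Epx rose, beside 19.6% of all tested genes called higher. They include Gm11505, annotated antisense to Mpo, whose reads cannot be told from those of Mpo if strand was not used in counting. Lpo, like Prg3, passed the filter through the carnosine libraries, where it was higher. The rise of all these rows is a description of the locus and was not tested. Around Prg2 and Prg3, Ssrp1 (0.06 ± 0.0225 on the log2 scale, SE; edgeR adjusted p = 0.076) and Tnks1bp1 (-0.06 ± 0.172, SE; edgeR adjusted p = 0.80) did not pass the test. There Slc43a3 rose by 0.15 ± 0.0364 (SE, edgeR adjusted p = 0.017). That call was lost without saline replicate 1 (0.14, edgeR adjusted p = 0.051) and with the DESeq2 Wald test (0.14, adjusted p = 0.059). The window was chosen after the values were seen.

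**Figure D4:**
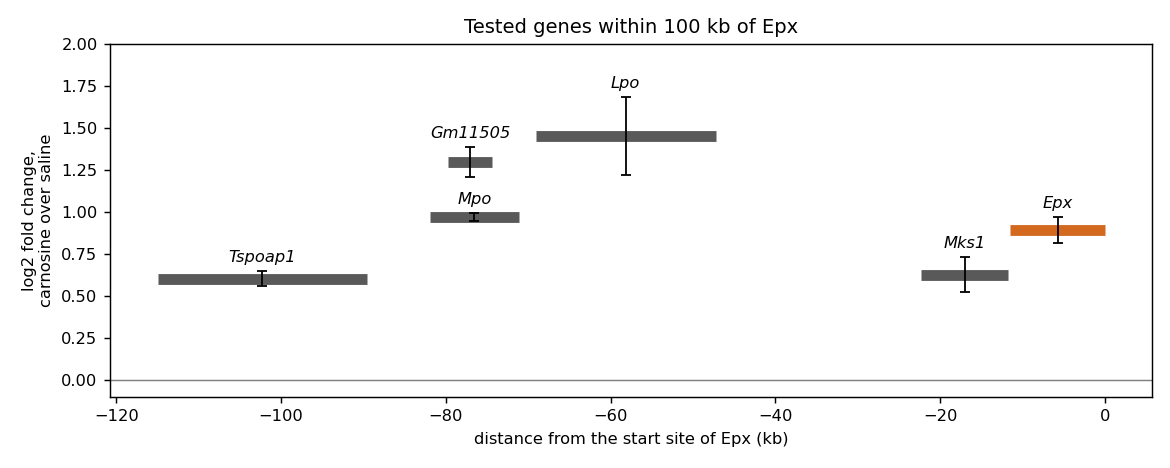
Log2 fold change, carnosine over saline, of Epx and of the tested genes within 100 kb, drawn along the distance from the start site of Epx; horizontal bars span the gene and vertical bars are ± 1 SE. All 6 lie above 0, from 0.60 (Tspoap1) to 1.45 (Lpo). Over all tested genes, 19.6% were called higher.

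A list of interleukin 5 receptor signalling genes and chains of related receptors moved in both directions. Of its 18 genes, all tested and Il5ra among them, 5 rose, 7 fell and 6 did not pass. Over all tested genes, 19.6% were called higher and 19.8% lower. The list had a median log2 fold change of -0.09, against -0.0001 over all tested genes. Among receptor chains, the GM-CSF receptor alpha chain Csf2ra was at 66.0 ± 4.43 CPM with carnosine and 37.9 ± 0.765 CPM with saline (SD, n = 3 each; edgeR adjusted p = 6.9e-05). The shared beta chain Csf2rb rose by 0.16 ± 0.0324 on the log2 scale (SE), and its near copy Csf2rb2, which in mice serves interleukin 3, fell by 0.75 (log2; SE 0.0485). Of their 50-base windows, 18.4% in Csf2rb and 19.4% in Csf2rb2 occur unchanged in a transcript of another gene, most often each other. These shares are from GENCODE M21, where both genes have other start and end positions than in the deposited table. How reads from such windows were assigned bears on both genes. Il3ra, the interleukin 3 receptor alpha chain, was at 30.0 ± 1.87 CPM with carnosine and 30.3 ± 1.15 CPM with saline (edgeR adjusted p = 0.89). Feedback genes and targets of STAT signalling in the list were lower: the inhibitor Cish was at 18.0 ± 0.272 CPM with carnosine and 84.1 ± 2.45 CPM with saline (SD, n = 3 each). The inhibitor Socs3 was at 47.3 ± 2.29 CPM with carnosine and 110.6 ± 2.03 CPM with saline, and the kinase gene Pim1 at 389 ± 11.3 CPM with carnosine and 683 ± 6.03 CPM with saline. Of 9 cytokine and chemoattractant genes 2 were tested. Csf2, which encodes GM-CSF, fell (0.462 ± 0.138 CPM with carnosine and 1.23 ± 0.169 CPM with saline; edgeR), a call lost with the DESeq2 Wald test (log2 fold change -1.41, adjusted p = 0.071), and Ccl5 did not pass (edgeR adjusted p = 0.44). Csf2 passed the filter only through the saline libraries, where it was higher. Il3, Ccl8 and the eotaxin gene Ccl11 had 0 counts in all 6 libraries.

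Transcription factors of the eosinophil lineage split: of 12 tested, 6 rose, 5 fell and 1 did not pass (median -0.02 on the log2 scale). Among all tested genes, 39.4% were called in either direction. Cebpe, needed for the terminal differentiation of granulocytes, was at 14.0 ± 2.18 CPM with carnosine and 1.61 ± 0.311 CPM with saline (SD, n = 3 each). Its log2 fold change of 3.12 ± 0.182 (SE; edgeR adjusted p = 2.0e-05) was larger than that of any member tested. The other C/EBP genes in the list differed in direction. Cebpb was at 27.0 ± 2.38 CPM with carnosine and 58.5 ± 1.98 CPM with saline (edgeR adjusted p = 3.4e-05), a fall, and Cebpa rose by 0.52 ± 0.053 on the log2 scale (SE; edgeR adjusted p = 0.00031). Spi1, which encodes PU.1, rose by 0.19 ± 0.0453 (log2, SE; edgeR adjusted p = 0.014). Gata1, the factor on which mouse eosinophils depend, was lower with carnosine, at 89.5 ± 5.36 CPM, against 104.7 ± 2.79 CPM with saline (edgeR adjusted p = 0.011). Gata2 fell by 0.86 (log2; SE 0.0271), and Trib1, a regulator of C/EBP alpha, fell by 0.79 (SE 0.0432). Id2 rose by 0.92 ± 0.0495 and Id1 fell by 1.31 (SE 0.065).

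Most markers of mature eosinophils did not pass the test. Of 10 symbols found, 7 were tested, 1 rose and 6 did not pass, and 2 rose without saline replicate 3. Most of all tested genes did not pass either, with 39.4% called. The one that rose, the integrin Itgax, is carried by other myeloid cells too. Siglecf, a surface lectin of mouse eosinophils, was at 23.7 ± 2.32 CPM with carnosine and 20.2 ± 1.71 CPM with saline (SD, n = 3 each; edgeR adjusted p = 0.10). Ccr3, the eotaxin receptor, had counts of 0, 6 and 4 with carnosine and 1, 4 and 1 with saline, and Alox15 had 4, 1 and 2 with carnosine and 7, 13 and 5 with saline. Il1rl1, the interleukin 33 receptor, was at 60.0 ± 2.31 CPM with carnosine and 59.3 ± 0.30 CPM with saline (edgeR adjusted p = 0.79). Ccr3 and Alox15 were below the filter. Each carnosine library was below each saline library for Alox15, as for 26.1% of all tested genes. Each was above for Itgax and for Siglecf, Adgre1 and Cd300lf, which did not pass the test, as for 26.2% of all tested genes. The groups overlapped for Ccr3 and the rest of the list. The list's summed level was 115.5 to 123.7 CPM with carnosine and 100.7 to 101.3 CPM with saline. Most of that gap came from Itgax alone, at 29.4 ± 0.554 CPM with carnosine and 15.5 ± 1.43 CPM with saline (SD, n = 3 each).

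Genes of other granulocytes and myeloid cells are given beside the members because they share progenitors and, for some, granule proteins with eosinophils. Their part in the members' change was not tested. The shares to set beside the counts below are 19.6% of all tested genes called higher and 19.8% called lower. Of 10 azurophil granule genes, the early granules of neutrophils, 8 rose and 1 fell, with a median log2 fold change of 0.97 and summed levels of 8726 to 9282 CPM with carnosine and 4610 to 4864 CPM with saline. Neutrophil elastase (Elane) rose by 1.71 ± 0.0326, cathepsin G (Ctsg) by 1.17 ± 0.0192 and Ms4a3 by 1.30 ± 0.0271 (log2, SE), next to 1.64 for Prg2 and 0.89 for Epx. Most called mast cell and basophil markers went the other way: of 13 tested, 7 fell, 1 rose and 5 did not pass. Summed levels were 263 to 273 CPM with carnosine and 379 to 402 CPM with saline, with no member at 0 in all libraries. The 1 that rose was Hdc, at 84.0 ± 5.11 CPM with carnosine and 63.2 ± 1.51 CPM with saline (edgeR adjusted p = 0.00099). Cma1, Tpsb2, Mcpt4, Mitf and Il4 did not pass. The basophil proteases Prss34 and Mcpt8 fell by 1.83 (SE 0.0653) and 0.81 (SE 0.0582) on the log2 scale, Cpa3 by 0.47 (SE 0.0447) and the vesicle transporter Slc18a2 by 0.90 (SE 0.0391).

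Among 14 neutrophil secondary and late granule genes, 12 were tested, 2 rose and 3 fell. Beside this and the next lists stand 19.6% of all tested genes called higher and 19.8% called lower. The counts in this paragraph describe the lists and were not tested against those shares. Lcn2 was at 26.8 ± 1.87 CPM with carnosine and 8.79 ± 0.561 CPM with saline, while lactoferrin (Ltf) was at 1.10 ± 0.0838 CPM with carnosine and 9.37 ± 0.244 CPM with saline (SD, n = 3 each). Their summed levels overlapped, at 87.8 to 89.2 CPM with carnosine and 84.2 to 90.1 CPM with saline. Of 8 monocyte and macrophage markers tested, 2 rose and 2 fell, and summed levels overlapped (504.6 to 545 CPM with carnosine and 425 to 562 CPM with saline). The rise of Cd68 in that list was lost without any one of the 3 carnosine libraries or of saline replicates 1 and 2 (log2 fold change 0.16 to 0.25, edgeR adjusted p = 0.072 to 0.12), leaving Ly6c2 as the 1 that rose. In the same list F13a1 had a log2 fold change of 0.01 (edgeR adjusted p = 0.97), but it fell by 0.19 without saline replicate 3 (edgeR adjusted p = 0.0053), and 3 genes of the list were then lower. Csf1r, the receptor that marks monocytes, fell by 0.82 (log2; SE 0.0541). Of 9 genes of the gate and of stem cells, 1 rose, Kit, and 4 fell, among them Slamf1 (log2 fold change -0.93 ± 0.0805, SE) and Mecom (-1.01 ± 0.12, SE). In that list 2 rose without saline replicate 3.

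**Figure D5:**
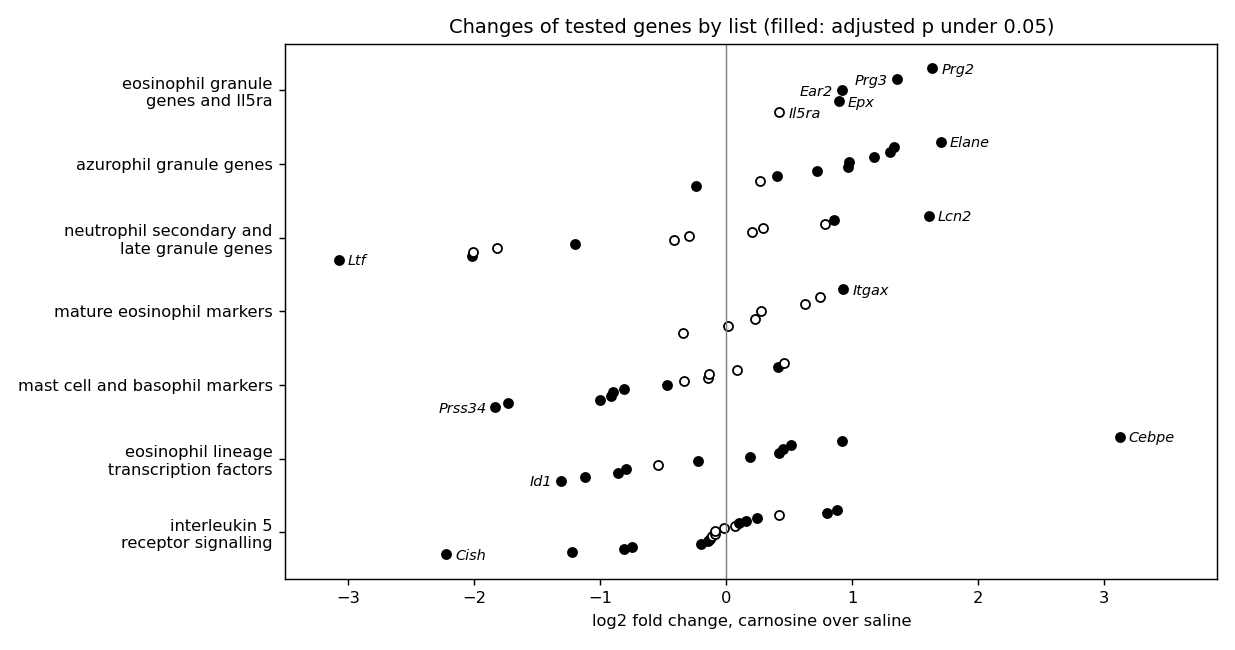
Log2 fold change, carnosine over saline, of every tested gene of 7 lists, 1 point per gene; filled points passed edgeR's test at an adjusted p under 0.05. The members lie between 0.42 (Il5ra) and 1.64 (Prg2), in the range of the azurophil granule genes and above most mast cell and basophil markers.

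The genes whose pattern over the 6 libraries was most like the mean standardised log2 CPM of the 5 members tested were Taf1a (Pearson r = 0.9995), Kcnip3, Fam160b2, Oas1g and Tnfrsf1b (0.998 each), among 11406 genes of at least 5 CPM. Of these genes, 1036 (9.08%) had an r above 0.95. The groups stand apart in all of these, so r mostly records the same split in 6 libraries and is given with no test. Kcnip3 was at 13.4 CPM with carnosine and 8.22 CPM with saline on average, and Tnfrsf1b at 58.7 CPM with carnosine and 40.2 CPM with saline. The call of Oas1g (log2 fold change 0.19, edgeR adjusted p = 0.033) was lost when any 1 of the 6 libraries was left out (log2 fold change 0.18 to 0.20, edgeR adjusted p = 0.058 to 0.096).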

How the data were processed

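Per the labels' protocols, poly-A RNA of the sorted cells went into stranded paired-end libraries for Illumina NovaSeq sequencing. CASAVA 1.8, HISAT2, StringTie, edgeR and GRCm38 are named in the submitters' processing notes, with no roles. The deposited table holds whole-number counts, not normalized, and FPKM values by the authors for each library, per the file headers. The annotation, strand setting and handling of shared reads: not given in the sources used here. Positions equal those of GENCODE M21 for each gene whose position is printed. Those of Csf2rb and Csf2rb2, not printed, differ from it.

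Groups and replicate numbers came from the sample titles. The counts went into edgeR 4.0.16 (R 4.3.3): filterByExpr (minimum count 10, which left 15533 genes), TMM, and the quasi-likelihood F-test of carnosine against saline with no covariate, adjusted by Benjamini-Hochberg over all genes tested. SE is the log2 fold change divided by the square root of F. CPM levels are means ± SD of 3 libraries. Floors (3 counts) cover counting error only, while SE also takes in the variation among libraries that edgeR estimated. The procedure was checked on simulated counts. Replicate pairs differed by 1.57 to 1.81 times sampling noise, so none was counted as a duplicate.

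The members and the gene lists were chosen with earlier results of these data known. Genes were named by a rule: the members, ribonuclease genes of at least 1 CPM, 9 receptors, factors and markers, up to 4 called genes per list by p-value with the most abundant one, and the 5 genes most like the members in pattern. Neighbouring genes, Ear6, Cebpa, Cebpb, Spi1, Adgre1, Cd300lf, Hdc, Cma1, Tpsb2, Mcpt4, Mitf and Il4 were chosen later, with their values in view. A few genes under the rule appear only within list counts. Alternatives changed the scaling (DESeq2 size factors, upper quartile), the filter (none, or 5 CPM in 3 libraries) or the test (DESeq2 1.42.0 Wald; limma 3.58.1 with voom; limma-trend on log2(FPKM + 1), keeping 1 FPKM in 3 libraries), added the replicate number as a block, or left out each library.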

Additional observations from a re-analysis of the deposited data

How the results depend on the processing

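The log2 fold changes of Prg2 (1.59 to 1.70), Prg3 (0.80 to 1.45) and Epx (0.74 to 0.92) kept their direction and their call. This held in every alternative that could be fitted, 14, 13 and 14 in number. The low ends for Prg3 and Epx came from limma-trend on log2(FPKM + 1), a scale on which the added 1 reduces the fold changes of low values. Without one library Prg3 ran from 1.26 to 1.45 and Epx from 0.85 to 0.92. Prg3, Ear2 and Il5ra have no value with at least 5 CPM in 3 libraries, nor has Il5ra with limma-trend. With at least 5 CPM in 3 libraries the count of members that rose was therefore 2. Without one library it was 3 to 4. Ear2 missed the threshold with no filter (0.91, edgeR adjusted p = 0.069) and with the DESeq2 Wald test (0.92, adjusted p = 0.25), and ran from 0.72 to 1.07 without one library. Il5ra ran from 0.21 to 0.66 without one library and passed in none of its 12 alternatives. The number of genes called in all was 2194 to 3387 higher and 2156 to 3101 lower over the alternatives. With limma-trend on FPKM, 3387 were higher and 2156 lower, and the median of all genes moved by 0.0511.

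Signs turned for 4 genes that were not called with all 6 libraries, and 1 of them, F13a1, was then called as lower (-0.19 without saline replicate 3, edgeR adjusted p = 0.0053). Il3ra was at 0.0353 with limma-trend on log2(FPKM + 1) and ran from -0.0621 to 0.0289 without one library. Without one library Il1rl1 ran from -0.0095 to 0.046, F13a1 from -0.19 to 0.15 and Tnks1bp1 from -0.21 to 0.0441. Libraries with the same replicate number did not deviate together from their group means (correlations of deviations 0.00791, 0.0268 and 0.021). The labels do not say whether they were handled together. With the replicate number as a block the log2 fold changes were 1.64 for Prg2, 1.36 for Prg3, 0.89 for Epx, 0.91 for Ear2 and 0.40 for Il5ra, and 4 members rose. The counts of Ear1, Ear2 and Il5ra, at most 18 per library, limit what can be detected for them.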
